A study of Homo sapiens with 12 samples.

Results

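Nonsense-mediated decay (NMD) factors were examined in TYK-nu cells, an ovarian cancer cell line, after exposure to cisplatin. The set was given by name as 9 genes (UPF1, UPF2, UPF3A, UPF3B, SMG1, SMG5, SMG6, SMG8 and SMG9), chosen with earlier results of these data known. Of these, 8 had exon and intron counts among the 17508 genes of the count table and all 8 passed the filters on low counts. SMG8 was not analysed here. Cells were exposed to 15 µM cisplatin, a platinum drug that crosslinks DNA, or to DMSO, the solvent control, and were harvested after 24 or 72 h. Each of the 4 groups had 3 replicates, giving 12 poly(A)-selected RNA-seq libraries from 1 cell line. The labels give no separate origin for the replicate cultures, so the p-values measure the spread between these libraries, which may be partly technical. An exception is the main form of the logistic regression below, which takes each fragment as independent and leaves this spread out.

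NMD is the surveillance pathway that degrades mRNAs on which translation ends too early, and it also lowers a set of normal mRNAs, many of them from stress-response genes. The RNA helicase UPF1 is recruited to the terminating ribosome, and UPF2 and UPF3B link it to the exon junction complex left behind by splicing. UPF3A is the paralog of UPF3B. The kinase SMG1, held in check by its partners SMG8 and SMG9, phosphorylates UPF1, after which SMG6 cuts the mRNA and SMG5 brings in deadenylation and decapping enzymes. The ratio of exon to intron counts was the measure of splicing in this study, since intron reads come largely from unspliced RNA. The comparisons ask whether cisplatin changed the amount of mature (exon) or unspliced (intron) RNA of these genes or the ratio between them, and whether time in culture did so.

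The libraries held between 18526830 and 68753262 exon and intron counts, of which 6.26% to 7.17% were intronic. Levels are given below as counts per 1000000 (CPM) of the library's effective exon or intron total after TMM normalization. As a check of the labelled cell type, the keratins KRT18 (median 157 exon CPM over 12 libraries) and KRT8 (22.5) and the transcription factor MECOM (116) were detected, while the Mullerian markers SOX17 and EMX2 and the epithelial cadherin CDH1 were at 0 counts in every library and PAX8 did not exceed 0.0758 CPM. Only 5 of the 11 serous and Mullerian markers in the table reached a median of 1 CPM. Of the 4 mesenchymal markers, VIM (median 7661 CPM), ZEB1 (217 CPM) and FN1 (41.7 CPM) were detected and CDH2 was at 0 counts in every library. PECAM1 (1955 CPM) and CDH5 (863 CPM), which are best known from endothelium, were high, while VWF, also an endothelial marker, had a median of 0.683 CPM. Among blood markers, PTPRC, HBB and HBA1 were at 0 and the T-cell marker CD3E had 6 to 45 exon counts per library (median 0.434 CPM). The summed level of the 12 markers of other cell types, of which 2 reached a median of 1 CPM, was 3434 to 3474 CPM in DMSO at 24 h and 2033 to 2126 CPM in DMSO at 72 h. In the cisplatin libraries this sum was 3355 to 3479 CPM at 24 h and 2165 to 2308 CPM at 72 h. The mesenchymal sum was 7144 to 7657 CPM in DMSO and 6989 to 7318 CPM with cisplatin at 24 h, and 8584 to 8705 CPM and 8238 to 8759 CPM at 72 h. The serous and Mullerian sum was 307 to 319 CPM in DMSO and 302 to 312 CPM with cisplatin at 24 h, and 280 to 285 CPM and 298 to 304 CPM at 72 h, where the treatments did not overlap. The first 2 sums therefore moved with time in both treatments and the serous and Mullerian sum in DMSO, where several of the NMD genes described below moved too, while with cisplatin its ranges at 24 and 72 h overlapped. The part of these sums in those results was not tested.

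The genes lie on 7 chromosomes. Their GRCh38 positions are chr19:18831959-18868230 for UPF1, chr10:11920022-12043170 for UPF2, chr13:114281601-114305817 for UPF3A, chrX:119834022-119852998 for UPF3B, chr16:18804860-18926408 for SMG1, chr1:156249224-156282825 for SMG5, chr17:2059839-2303785 for SMG6 and chr19:43727983-43754962 for SMG9. All are protein-coding. SMG6 overlaps HIC1 and SRR on the opposite strand, and both of these are in the count table, so without a stated strand option the counts of these genes cannot be told apart with certainty.

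Of the 8 genes, 2 have near-identical copies elsewhere in the genome. For UPF3A, 7 of the 10 exons of the reference (MANE) transcript, holding 82.7% of its 2370 bases, matched the processed pseudogenes UPF3AP1, UPF3AP2 or UPF3AP3 over at least 100 bases at 96.4% to 100% identity, and 2 of these exons were identical to a copy. For SMG1, 24 of 63 exons and 23.8% of the exon bases matched the pseudogenes SMG1P1 to SMG1P7, with 8 exons identical. No such match was found for the exons of UPF2, UPF3B, SMG5, SMG6, SMG9 or UPF1. The closeness is shown by a stretch of 30 bases in the coding part of UPF3A exon 9, at chr13:114301836-114301865 on the plus strand, beside its copy in UPF3AP1, at chr17:16745920-16745949 on the minus strand (GRCh38). The base that differs is in capitals.
UPF3A: tcaccacgagcctgaAcggctttccagaag
UPF3AP1: tcaccacgagcctgaCcggctttccagaag
Over the whole exon the alignment of 295 bases held 3 mismatches. The exon counts of UPF3A are therefore uncertain, since fragments that fit the gene and a copy equally well may be lost or assigned to either, and the same holds for part of SMG1. SMG1P1, a copy with its own entry in the table, had 2 to 36 exon counts per library against 1886 to 6713 for SMG1.

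To compare levels between genes, exon counts were divided by the length of the reference transcript in kilobases. Which exons of each gene were counted is not given in the sources used here, and 423 of the 17508 genes in the table have no exon entry, so the counted bases may differ from this length by an amount that differs between genes. The levels and their order below therefore hold only for the length named. In DMSO at 24 h the level was 77.8 ± 3.45 CPM per kb (SD, n = 3) for SMG5, 42.4 ± 3.45 for UPF1 and 25.5 ± 1.21 for UPF3B. It was 24.4 ± 1.68 CPM per kb for UPF2, 14.1 ± 0.431 for SMG9 and 7.15 ± 0.383 for SMG1. The lowest levels were those of UPF3A, at 5.25 ± 0.613, and SMG6, at 1.55 ± 0.112 CPM per kb. In this order, UPF3B and UPF2 were the only neighbours whose libraries overlapped. The union of the exons of all annotated isoforms is 1.08 times (UPF3B) to 2.43 times (UPF3A) as long as the reference transcript. With the union as length, added after seeing the data, SMG5 stayed highest (66.9 ± 2.97 CPM per kb in DMSO at 24 h), followed at 24 h by UPF1, UPF3B, UPF2, SMG9, SMG1, UPF3A and SMG6 in the same order, but UPF1 (25.2 ± 2.05) then overlapped with UPF3B (23.6 ± 1.12). In DMSO at 72 h UPF1 was below UPF3B with this length, at 16.7 ± 0.841 against 21.6 ± 0.328 CPM per kb, and above it with the reference transcript, at 28.1 ± 1.41 against 23.4 ± 0.355. UPF3A and SMG1 also exchanged places at 72 h with the choice of length. With the reference transcript UPF3A was higher in DMSO (9.27 ± 0.754 against 6.57 ± 0.493 CPM per kb), and with the union it was lower on average (3.82 ± 0.311 against 4.197 ± 0.315), with overlapping libraries. SMG6 had the lowest value in all groups with either length, but how many of its bases were counted is not known. Fragments lost to the copies of UPF3A and SMG1 would lower their apparent levels, and fragments of the copies assigned to these genes would raise them.

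The ratio of exon to intron counts separated the genes into groups. Summed over the 12 libraries, it was 68.6 for SMG1, 54.9 for SMG5, 49.9 for UPF3B, 40.5 for UPF1 and 34.9 for UPF2, all above the median of 14.6 over the genes tested. SMG9 had a ratio of 8.85, SMG6 of 1.72 and UPF3A of 1.29. UPF3A and SMG6 thus ranked at percentiles 8.01 and 10.6 of all genes. The ratio was not corrected for length, and the bases outside annotated exons ran from 16446 for UPF3B to 233379 for SMG6. For UPF3A, fragments lost to or gained from its copies would also change the ratio, and for SMG6 fragments of HIC1 or SRR might. The ranks therefore do not order the genes by splicing. For UPF3A this ratio rested on 6846 exon and 5294 intron counts, and for SMG6 on 3967 and 2301.

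The response to cisplatin was examined first at the level of exon counts. None of the 8 NMD genes passed the test at either time. At 24 h the log2 changes (cisplatin over DMSO) lay between -0.03 and 0.10, with a median of 0.06 against 0.00 over all 10444 genes tested, and no 95% interval went below -0.16 or above 0.34. At 72 h they lay between -0.11 for UPF3B and 0.16 for SMG6, with a median of 0.02 against 0.00 over all genes, and the intervals stayed between -0.29 and 0.39. In the quasi-likelihood test of edgeR, with p-values adjusted after Benjamini and Hochberg, 0 of 8 genes passed at 24 h, where 0% of all genes did, and 0 of 8 passed at 72 h, where the share was 0.0287%. That share at 72 h rests on 3 genes, and the count was 0 to 72 when 1 library was left out (72 without DMSO replicate 3 and 0 without cisplatin replicate 3), 154 without a filter on low counts and 85 by DESeq2. No member had an unadjusted p under 0.05 at either time (2.49% and 12.6% of all genes), and DESeq2 called 0 of 8 at both. The lowest adjusted p among the members was 0.9997 at 24 h and 0.475 at 72 h.

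**Figure D1:**
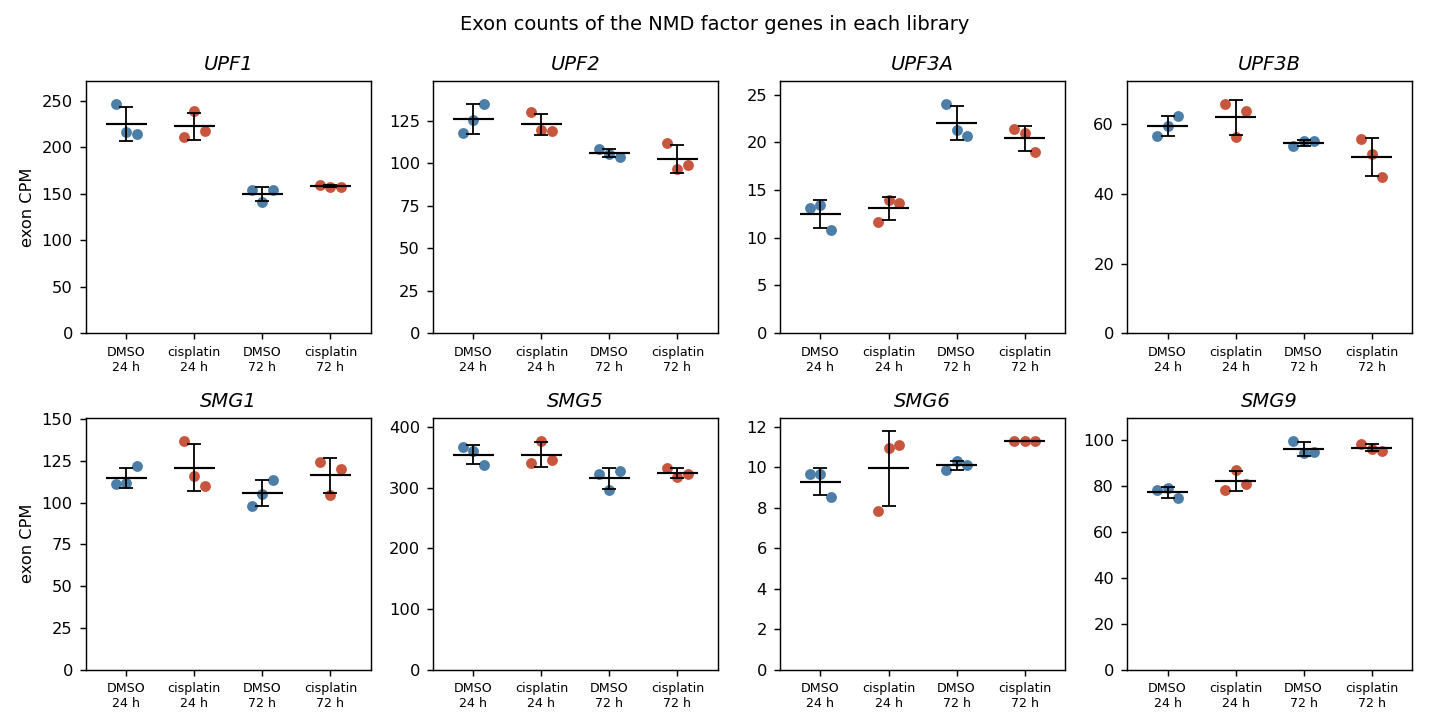
Exon levels in CPM (vertical axes, from 0) of the 8 NMD factor genes in each of the 12 libraries, blue for DMSO and red for cisplatin, with the mean (long bar) and SD (error bar) of each group of 3. Within a time the DMSO and cisplatin libraries lie close together, while UPF1 falls from 214 to 247 CPM at 24 h to 141 to 154 CPM at 72 h in DMSO and UPF3A rises from 10.8 to 13.4 CPM to 20.7 to 24.0 CPM.

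UPF1, the central helicase of the pathway, shows how narrow these differences were. At 24 h it had 247, 216 and 214 exon CPM in DMSO and 211, 239 and 218 CPM with cisplatin. The libraries of the 2 groups were interleaved, and the fold change was 0.987 (log2 change -0.02 ± 0.06, SE). At 72 h the DMSO libraries had 154, 141 and 154 CPM and the cisplatin libraries 159, 158 and 157 CPM. All 3 cisplatin libraries were higher than the 3 DMSO libraries, by a mean of 1.06-fold, which did not pass the test (log2 change 0.08 ± 0.06, edgeR adjusted p = 0.621).

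SMG6, the endonuclease, was the only other gene whose exon levels did not overlap between the treatments at 72 h. It had 9.87, 10.3 and 10.1 CPM in DMSO and 11.3 CPM in each cisplatin library, a 1.12-fold difference (log2 change 0.16 ± 0.11, edgeR adjusted p = 0.559). Its cisplatin libraries were the higher ones, but its counts were among the lowest of the set (249 to 725 exon counts per library at 72 h). Non-overlap in 2 of 8 genes compares with 18.1% of all genes at this time, and non-overlap in 0 of 8 at 24 h with 6.42%. SMG1, the kinase, had the next largest difference at 72 h (98 to 114 CPM in DMSO and 105 to 124 CPM with cisplatin, log2 change 0.14 ± 0.08, edgeR adjusted p = 0.475), and its groups overlapped.

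Intron counts and the exon/intron ratio likewise gave no call. No member passed the edgeR test of intron counts at 24 h or 72 h (0 of 8 each, against 0.0208% and 0.0416% of 9618 genes), and none had an unadjusted p under 0.05 (5% and 6.47% of all genes) or was called by DESeq2. The intron changes lay between -0.34 and 0.12 at 24 h and between -0.38 and 0.11 at 72 h on the log2 scale, and their 95% intervals reached from -0.84 to 0.44 and from -0.90 to 0.53. The edgeR test of the ratio also called 0 of 8 members at 24 h (0% of 9380 genes) and 0 of 8 at 72 h (0.0213%), with no unadjusted p under 0.05 (6.33% and 6.24% of all genes) and no call by DESeq2. Intervals for the ratio changes ranged from -0.58 to 0.81 at 24 h and from -0.60 to 0.61 at 72 h, so the widest interval reached up to a 1.76-fold higher ratio. The median log2 change of the ratio over the members was 0.11 at 24 h and -0.06 at 72 h, against -0.09 and -0.08 over all genes.

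SMG1 was the gene whose introns and ratio stood apart at 24 h. It had 28.5, 28.4 and 26.8 intron CPM in DMSO and 25.7, 22.7 and 16.5 CPM with cisplatin. Its exon/intron ratio was 53.5, 57.1 and 59.5 in DMSO and 69.7, 62.6 and 94.3 with cisplatin. In both measures the groups did not overlap, but these values rest on 20 to 63 intron counts per library. The log2 change was -0.34 ± 0.25 for introns (edgeR adjusted p = 0.965) and 0.33 ± 0.24 for the ratio (edgeR adjusted p = 0.855), and non-overlap was seen in 8.94% and 9.59% of all genes. UPF3B, the exon junction adaptor, had lower intron levels in every cisplatin library at 72 h (14.3, 14.6 and 10.7 CPM against 19.9, 16.5 and 16.4 CPM in DMSO), from 24 to 68 counts per library, with a log2 change of -0.38 ± 0.26 (edgeR adjusted p = 0.860). Non-overlap of intron counts was seen in 13.4% of all genes at that time.

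The logistic regression of exon and intron counts, which is the test the study used and treats each read as independent, called 0 of 8 members at 24 h and 0 of 8 at 72 h. It called 11.5% and 11.4% of all genes in the same comparisons, and 0 members and 0 genes at either time with a quasi-binomial spread taken from the replicates, where 530 and 683 genes had an unadjusted p under 0.05. At 72 h it called 2 members without DMSO replicate 3 (1120 of 10037 genes). It called 1 without DMSO replicate 2 (885 of 10115 genes) or without cisplatin replicate 1 (1138 of 10037 genes). UPF3A at 72 h was the only member with an unadjusted p under 0.05, beside 25.1% of all genes (log2 change of the ratio -0.14 ± 0.07, adjusted p = 0.161 in the logistic regression over all genes). Its ratio was 2.01, 1.37 and 1.43 in DMSO and 1.57, 1.42 and 1.16 with cisplatin, so the groups overlapped.

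**Figure D2:**
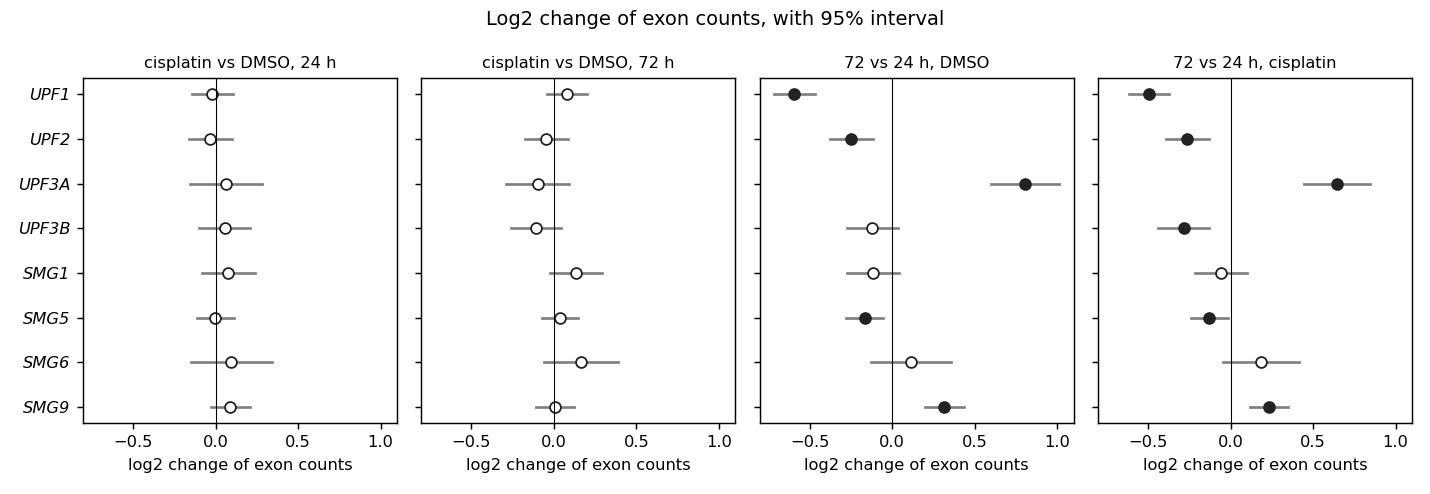
Log2 change of exon counts (points) with 95% intervals (lines) of the 8 NMD factor genes in the 4 comparisons, from edgeR, with filled points for an adjusted p under 0.05. In the 2 cisplatin comparisons every interval includes 0, and in the comparisons of 72 with 24 h UPF1 is lowest (-0.59 in DMSO and -0.50 with cisplatin) and UPF3A highest (0.81 and 0.64).

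In contrast to the treatment, the time of harvest was accompanied by changes in most of these genes. In DMSO 5 of 8 members differed in exon counts between 72 and 24 h, with UPF1, UPF2 and SMG5 lower and UPF3A and SMG9 higher, where 65.1% of all genes were called (32.6% higher and 32.5% lower). With cisplatin 6 of 8 differed, the same 5 genes in the same directions and UPF3B, which was lower, where 63.5% of all genes were called (32% higher and 31.5% lower). The share of members called was thus close to the background in both. The median log2 change of the members was -0.12 in DMSO and -0.09 with cisplatin, against 0.01 and 0.02 over all genes. In each of the 2 comparisons 7 of 8 members had groups that did not overlap, beside 67.4% and 67.2% of all genes. The 2 time comparisons use different libraries, but each shares its libraries with the cisplatin comparisons above.

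UPF1 had the largest decrease. From the levels at 24 h given above (mean 226 ± 18.4 exon CPM in DMSO, SD, n = 3) it fell to 149 ± 7.51 CPM at 72 h, a fold change of 0.663 (log2 change -0.59 ± 0.06, SE, edgeR adjusted p = 6.97e-09). With cisplatin it fell from 222 ± 14.4 to 158 ± 0.993 CPM, a fold change of 0.709 (log2 change -0.50 ± 0.06, edgeR adjusted p = 1.34e-07). In both treatments the lowest library at 24 h was well above the highest at 72 h. The intron counts of UPF1 were lower at 72 h in every DMSO library (52.1, 53.9 and 58.2 CPM against 80.3, 67.0 and 67.8 CPM) without passing the test (log2 change -0.38 ± 0.17, edgeR adjusted p = 0.0737), and overlapped with cisplatin.

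UPF3A had the largest increase. It had 13.1, 13.4 and 10.8 exon CPM in DMSO at 24 h and 24.0, 21.2 and 20.7 CPM at 72 h. Every library at 72 h exceeded every library at 24 h, and the level rose 1.75-fold (log2 change 0.81 ± 0.10, edgeR adjusted p = 1.65e-07). With cisplatin it had 11.7, 13.9 and 13.7 CPM at 24 h and 21.4, 20.9 and 18.9 CPM at 72 h, again without overlap, a 1.56-fold rise (log2 change 0.64 ± 0.10, edgeR adjusted p = 3.87e-06). These exon counts carry the uncertainty of the pseudogene copies described above.

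UPF3B had 56.8, 59.7 and 62.4 exon CPM in DMSO at 24 h and 53.8, 55.2 and 55.2 CPM at 72 h. The 72 h libraries were all lower, but the difference did not pass the test (log2 change -0.12 ± 0.07, edgeR adjusted p = 0.157). With cisplatin the values were 65.9, 56.4 and 63.8 CPM at 24 h and 55.8, 51.4 and 44.8 CPM at 72 h, which passed (log2 change -0.28 ± 0.07, edgeR adjusted p = 0.00178) although the lowest library at 24 h and the highest at 72 h were nearly level. Whether the time course of UPF3B depended on treatment was tested by the interaction, given below, and no such difference was called. As a share of the summed per-kilobase level of the 2 paralogs, UPF3A made up 17.1% ± 2.22 (SD, n = 3) at 24 h and 28.4% ± 1.95 at 72 h in DMSO, and 17.3% ± 2.35 and 28.6% ± 1.01 with cisplatin. These shares use the length of the reference transcripts, which need not be the bases counted, and with the union of exons they were 8.43% ± 1.195 and 15.01% ± 1.23 in DMSO and 8.54% ± 1.28 and 15.1% ± 0.636 with cisplatin. Copies matched 82.7% of the exon bases of UPF3A and 0% of those of UPF3B. Fragments lost to or gained from these copies could shift the share either way, which the SDs do not cover.

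UPF2, which bridges UPF1 and the UPF3 proteins, had 118, 125 and 135 exon CPM in DMSO at 24 h and 109, 105 and 104 CPM at 72 h. All libraries at 72 h were lower, with a fold change of 0.842 (log2 change -0.25 ± 0.06, edgeR adjusted p = 0.00150). With cisplatin the 24 h libraries (130, 120 and 119 CPM) were again above those at 72 h (112, 96.6 and 99.2 CPM), with a fold change of 0.833 (log2 change -0.26 ± 0.06, edgeR adjusted p = 0.000877).

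Among the SMG genes, SMG9, the partner of SMG8 in holding SMG1 inactive, was the one that rose. It had 78.1, 79.0 and 74.5 exon CPM in DMSO at 24 h and 99.7, 94.1 and 94.7 CPM at 72 h, a 1.24-fold increase (log2 change 0.32 ± 0.06, edgeR adjusted p = 3.22e-05). With cisplatin it went from 78.4, 86.9 and 80.8 CPM to 98.4, 96.0 and 95.4 CPM, a 1.18-fold increase (log2 change 0.23 ± 0.06, edgeR adjusted p = 0.000815). The groups were separate in both treatments.

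SMG5, the adaptor that brings decay enzymes to phosphorylated UPF1, had 367, 361 and 337 exon CPM in DMSO at 24 h and 323, 296 and 328 CPM at 72 h. Each library at 72 h was lower, and the fold change was 0.890 (log2 change -0.17 ± 0.05, edgeR adjusted p = 0.00848). With cisplatin it had 341, 378 and 346 CPM at 24 h and 333, 318 and 323 CPM at 72 h (fold change 0.914, log2 change -0.13 ± 0.05, edgeR adjusted p = 0.0390). This was the least stable of the exon calls. Without DMSO replicate 2 at 72 h the adjusted p was 0.0643, and in the cisplatin comparison it was 0.221 without replicate 2 at 24 h, 0.112 without replicate 2 at 72 h and 0.0915 without replicate 3 at 72 h.

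SMG1 and SMG6 did not pass in either treatment. For SMG1 the log2 change between 72 and 24 h was -0.12 ± 0.08 in DMSO (edgeR adjusted p = 0.186) and -0.06 ± 0.08 with cisplatin (edgeR adjusted p = 0.515), with overlapping groups. For SMG6 it was 0.11 ± 0.12 (edgeR adjusted p = 0.402) and 0.18 ± 0.11 (edgeR adjusted p = 0.161), with every library at 72 h above those at 24 h. The cisplatin response at 72 h was also set against that at 24 h by an interaction term, and 0 of 8 members were called for exon counts, intron counts or the edgeR ratio (0%, 0.0416% and 0% of all genes). None had an unadjusted p under 0.05 for the interaction, beside 9.43%, 5.71% and 4.55% of all genes. The 95% intervals of the exon interaction lay between -0.45 and 0.40 on the log2 scale.

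Intron counts changed with time in fewer members. In DMSO 1 of 8 passed (SMG5, lower) where 33.4% of all genes did (17.2% higher and 16.2% lower), and with cisplatin 2 of 8 (SMG5 lower and UPF3A higher) where 31.8% did (16.4% higher and 15.4% lower). SMG5 had 110, 114 and 96.1 intron CPM in DMSO at 24 h and 58.6, 84.2 and 71.9 CPM at 72 h. No library at 72 h reached the lowest at 24 h, and the fold change was 0.668 (log2 change -0.58 ± 0.15, edgeR adjusted p = 0.00127). With cisplatin the change was -0.45 ± 0.14 on the log2 scale (edgeR adjusted p = 0.0109), from 95.01 ± 17.2 to 70.6 ± 4.53 CPM (SD, n = 3). For UPF3A with cisplatin the intron level was 163, 150 and 188 CPM at 24 h and 192, 203 and 219 CPM at 72 h (log2 change 0.30 ± 0.11, edgeR adjusted p = 0.0286). Both cisplatin calls were lost without replicate 2 at 24 h (edgeR adjusted p = 0.164 for each gene). SMG5 also lost its call without cisplatin replicate 3 at 72 h (edgeR adjusted p = 0.0506), and UPF3A without replicate 1 at 24 h (0.0670), replicate 2 at 72 h (0.0664) or replicate 3 at 72 h (0.123).

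The exon/intron ratio between 72 and 24 h rose in DMSO for 3 of 8 members (UPF3A, SMG5 and SMG9) by the edgeR test, which called 11.5% of all genes, and 8.09% as higher. DESeq2 called 1 of 8 in this comparison, beside 777 of 9380 genes. The members' median log2 change was 0.27, and 0.16 with cisplatin, against 0.10 and 0.11 over all genes. UPF3A had ratios of 0.937, 1.17 and 0.714 at 24 h and 2.01, 1.37 and 1.43 at 72 h. More intron than exon fragments were counted in 2 of the 3 libraries at 24 h and in none at 72 h, and the ratio rose 1.68-fold (log2 change 0.75 ± 0.19, edgeR adjusted p = 0.00807). The ratio of SMG5 was 45.8, 46.0 and 46.0 at 24 h and 81.5, 51.1 and 65.4 at 72 h (log2 change 0.48 ± 0.15, edgeR adjusted p = 0.0390). SMG9 went from 7.04, 8.48 and 6.01 to 12.3, 9.41 and 9.88 (log2 change 0.55 ± 0.17, edgeR adjusted p = 0.0315). In all 3 genes, as in SMG1, the groups did not overlap, beside 28.4% of all genes.

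For SMG9 and UPF3A the rise of the ratio went with a rise of exon counts, whereas for SMG5 exon counts fell by 0.17 and intron counts by 0.58 on the log2 scale. These calls were lost when some single libraries were left out. Without DMSO replicate 3 at 24 h or without DMSO replicate 1 at 72 h, 0 of the 3 passed, with an edgeR adjusted p of 0.0617 and 0.0602 for UPF3A. Of the 6 fits that left out 1 library, UPF3A passed in 4, SMG9 in 2 and SMG5 in 1. The log2 change over these fits stayed between 0.58 and 0.93 for UPF3A, between 0.43 and 0.67 for SMG9 and between 0.34 and 0.65 for SMG5. With cisplatin 0 of 8 members passed the edgeR test of the ratio, which called 11.9% of all genes. There 4 members had an unadjusted p under 0.05 (27.2% of all genes), and DESeq2 called 0 of 8 (743 of 9380 genes). When exon and intron counts each had their own TMM sizes, 1 of 8 was called (1287 of 9380 genes). The values with cisplatin were 0.41 ± 0.18 for UPF3A, 0.39 ± 0.15 for SMG5, 0.36 ± 0.16 for SMG9 and -0.36 ± 0.16 for UPF1 (log2 change ± SE). The logistic regression called 3 of 8 members in DMSO, the same genes as edgeR, beside 33.7% of all genes. With cisplatin it called 5 of 8 (UPF3A, SMG5, SMG6 and SMG9 higher, UPF1 lower) beside 40.6% of all genes, and none of the calls in either treatment remained with a quasi-binomial spread taken from the replicates.

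**Figure D3:**
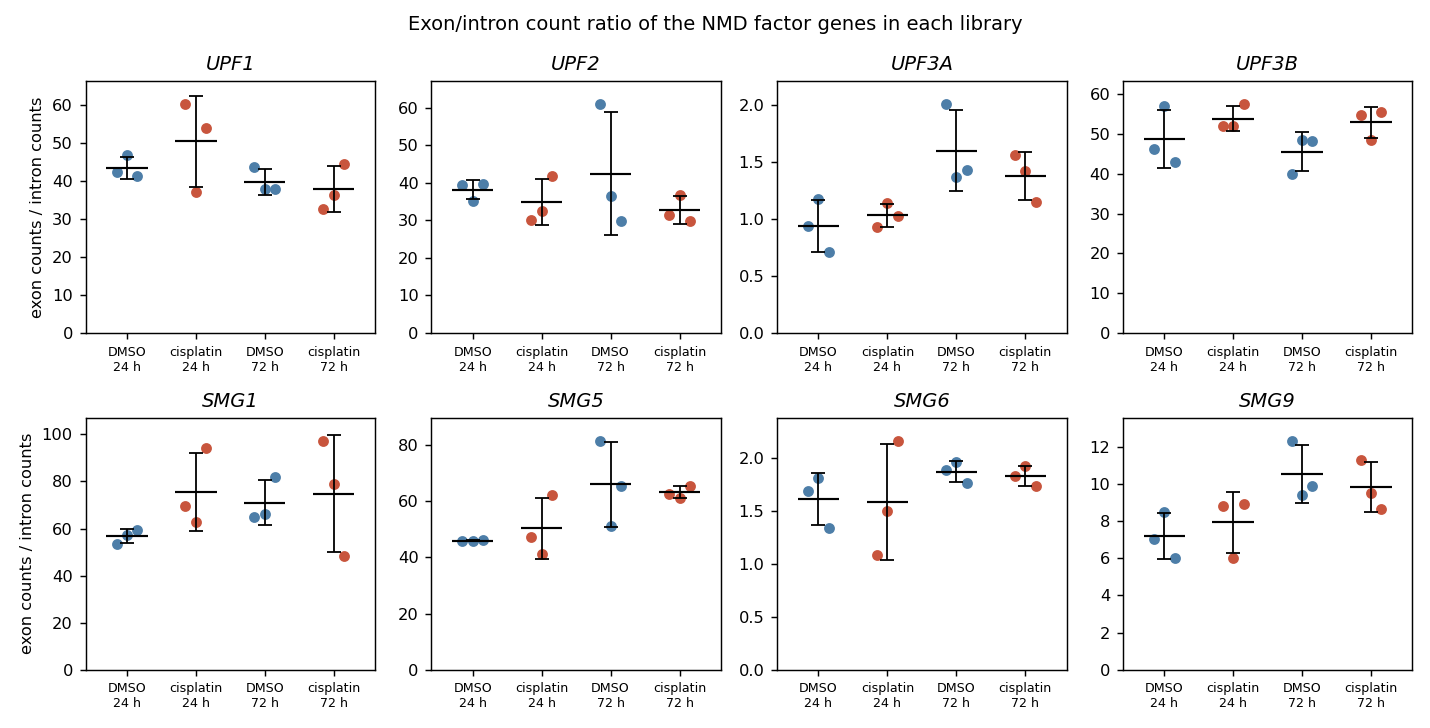
Ratio of exon to intron counts (vertical axes, from 0) of the 8 NMD factor genes in each of the 12 libraries, blue for DMSO and red for cisplatin, with the mean (long bar) and SD (error bar) of each group of 3. UPF3A and SMG6 lie between ratios of 0.714 and 2.16 and the other genes higher, and in DMSO the libraries at 72 h lie above those at 24 h for UPF3A, SMG1, SMG5 and SMG9.

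The members were compared by their exon profiles over the 12 libraries, here the log2 CPM with an offset of 0.5 CPM. UPF3A and SMG9 were most like each other (Pearson r = 0.97, n = 12 libraries), as were UPF1 and SMG5 (r = 0.90) and UPF2 and UPF3B (r = 0.84). UPF3A and UPF1 were least alike (r = -0.90). SMG1 had no close partner, its highest correlation being 0.49 with UPF2, and SMG6 was most like SMG9 (r = 0.64). The 12 points come from 4 groups of 1 cell line, so these values mostly set the 2 times against each other and are given as a description. The genes whose profile was most like the mean of the 8 members were EPS8 (r = 0.77), ZNRF3 (r = 0.73), KDM2B (r = 0.72), ADD2 (r = 0.72) and EPS15L1 (r = 0.71).

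Genes that act beside these factors were followed as lists. These lists were chosen with earlier results of these data known, so their counts beside all genes are a description. For each measure and time comparison, a list is described by at most 2 called genes with the smallest adjusted p, and further genes were named after their values were seen. With cisplatin no gene of any list passed the edgeR test of exon counts, intron counts or the ratio at 24 or 72 h. The logistic regression of the ratio did call list genes for cisplatin. At 24 h, where it called 11.5% of all genes, these were 1 higher and 3 lower of 6 genes of the exon junction complex, 5 lower of 13 further NMD and termination factors, 3 lower of 14 mRNA decay enzymes and 0 of 7 known substrates. At 72 h (11.4% of all genes) the calls were 1 lower, 1 lower, 1 higher and 1 lower, and 0 of 8, in the same order of lists. With a quasi-binomial spread from the replicates this test called 0 genes in all at either time. Between 72 and 24 h, the exon junction complex, which marks spliced mRNAs for NMD, was lower in 5 of 6 genes in DMSO and in 5 of 6 with cisplatin, and none was higher, where 32.5% and 31.5% of all genes were lower. The median log2 change was -0.31 and -0.40, against 0.01 and 0.02 over all genes. EIF4A3, the helicase that anchors the complex, went from 153 ± 1.43 to 107 ± 4.35 exon CPM in DMSO (SD, n = 3, log2 change -0.51 ± 0.05, edgeR adjusted p = 9.25e-09) and from 155 ± 5.94 to 101 ± 3.29 CPM with cisplatin. MAGOHB, a core subunit, went from 34.2 ± 2.32 to 24.2 ± 1.83 CPM in DMSO and from 38.2 ± 1.04 to 23.3 ± 0.853 CPM with cisplatin (log2 change -0.50 ± 0.08 and -0.71 ± 0.07). The other genes that fell were RBM8A, MAGOH and RNPS1. CASC3, the peripheral subunit, did not pass (log2 change 0.01 and 0.09).

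MAGOHB was also lower in its exon/intron ratio, from 9.27 ± 2.01 to 5.27 ± 0.515 in DMSO (SD, n = 3, log2 change -0.79 ± 0.17, edgeR adjusted p = 0.00312) and from 12.2 ± 1.06 to 5.62 ± 0.221 with cisplatin (log2 change -1.12 ± 0.17, edgeR adjusted p = 7.85e-05). MAGOH was lower in DMSO (log2 change -0.68 ± 0.21, edgeR adjusted p = 0.0374) and CASC3 was higher with cisplatin (log2 change 0.58 ± 0.17, edgeR adjusted p = 0.0224). In intron counts 1 gene was higher in DMSO (MAGOH, log2 change 0.53 ± 0.20) and 1 lower (RNPS1, -0.55 ± 0.12), beside 33.4% of all genes called. With cisplatin 1 was higher and 2 were lower (RNPS1, -0.58 ± 0.12, and EIF4A3, -0.94 ± 0.29), beside 31.8%.

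Of 13 further NMD and translation termination factors, 8 were lower and 1 was higher in DMSO, and 10 were lower and 1 was higher with cisplatin, again beside 32.5% and 31.5% of all genes lower. The median log2 change was -0.31 and -0.24. The cap-binding protein NCBP1 fell from 90.3 ± 3.22 to 63.4 ± 1.05 exon CPM in DMSO (SD, n = 3, log2 change -0.51 ± 0.06, edgeR adjusted p = 5.43e-08). The ATPase RUVBL1 fell from 303 ± 7.94 to 231 ± 3.66 CPM in DMSO and from 310 ± 8.61 to 229 ± 1.86 CPM with cisplatin (log2 change -0.39 ± 0.05 and -0.44 ± 0.05). GSPT1, the release factor eRF3a, fell with cisplatin from 199 ± 9.97 to 159 ± 5.68 CPM (log2 change -0.32 ± 0.05, edgeR adjusted p = 1.67e-05). The gene that was higher was PABPC1, the poly(A)-binding protein (log2 change 0.14 in DMSO and 0.24 with cisplatin). Intron calls in DMSO were 4 lower, among them PABPC1 (-0.41 ± 0.10) and RUVBL2 (-0.58 ± 0.16), and 0 higher, beside 33.4% of all genes called. With cisplatin 4 were lower, among them PABPC1 (-0.44 ± 0.10), and NCBP2 was higher (0.49 ± 0.11), beside 31.8%. The ratio rose for PABPC1 in both (0.62 ± 0.11 and 0.75 ± 0.11) and fell for NCBP2 with cisplatin (-0.66 ± 0.13), beside 11.5% and 11.9%.

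Of 14 mRNA decay enzymes and their cofactors, 5 were lower and 1 was higher in DMSO, and 5 were lower and 3 were higher with cisplatin. These shares called lie below the 65.1% and 63.5% of all genes called in the same comparisons. The median log2 change was -0.10 and -0.11. DDX6, a helicase of the decapping machinery, fell from 140 ± 17.7 to 82.9 ± 3.999 exon CPM in DMSO (SD, n = 3, log2 change -0.75 ± 0.08, edgeR adjusted p = 9.39e-09) and from 131 ± 10.4 to 92.8 ± 7.24 CPM with cisplatin. EXOSC10, a nuclear exonuclease of the exosome, fell from 187 ± 3.29 to 133 ± 1.17 CPM and from 188 ± 5.95 to 132 ± 7.35 CPM (log2 change -0.49 ± 0.05 and -0.51 ± 0.05). DCP1B, a decapping cofactor, was higher in both treatments (log2 change 0.66 and 0.47). Intron counts were lower in 5 genes and higher in 1 in DMSO and lower in 6 with cisplatin, beside 33.4% and 31.8% of all genes called. They fell for EXOSC10 in both (log2 change -0.84 ± 0.12 and -0.71 ± 0.11), DCP2 in DMSO (-0.62 ± 0.17) and EDC4 with cisplatin (-0.54 ± 0.12). The only edgeR ratio call was EXOSC10, higher in DMSO (0.42 ± 0.13), beside 11.5% of all genes called.

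The last list held genes whose transcripts NMD is known to degrade. Of the 15 genes listed, only 7 had exon counts that could be tested, and 6 of 7 were higher at 72 than at 24 h in DMSO and 5 of 7 with cisplatin, with none lower, where 32.6% and 32% of all genes were higher. The median log2 changes were 0.50 and 0.60, and the difference from the other lists was not tested. Several of these genes are also known as stress-induced genes at the level of transcription, and their levels do not measure decay. UPP1, a uridine phosphorylase, rose from 13.01 ± 1.203 to 37.0 ± 3.40 exon CPM in DMSO (SD, n = 3, log2 change 1.51 ± 0.10, edgeR adjusted p = 1.70e-12) and from 14.1 ± 1.42 to 34.9 ± 2.64 CPM with cisplatin (log2 change 1.30 ± 0.09). GADD45B, a growth arrest and stress gene, rose from 49.5 ± 2.93 to 96.6 ± 5.21 CPM and from 50.7 ± 2.32 to 87.4 ± 7.01 CPM (log2 change 0.96 ± 0.07 and 0.79 ± 0.07). ATF4, a transcription factor of the stress response, the cystine transporter SLC7A11 and the kinase MAP3K14 also rose in both treatments and the co-chaperone BAG1 in DMSO, while TBL2 did not pass in either (log2 change 0.07 and -0.01).

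Intron counts and ratios were examined for the same transcripts. Intron counts could be tested for 11 of the 15 genes, with 2 higher and 2 lower in DMSO and 2 higher and 1 lower with cisplatin, which is near the background of 33.4% and 31.8% of all genes called. The introns of UPP1 rose from 121 ± 11.3 to 226 ± 12.5 CPM in DMSO (SD, n = 3, log2 change 0.91 ± 0.11, edgeR adjusted p = 2.86e-09) and from 131 ± 21.7 to 229 ± 4.47 CPM with cisplatin (log2 change 0.78 ± 0.11). DDIT3, a stress-induced transcription factor with intron counts only in the table, rose from 23.2 ± 5.70 to 177 ± 12.03 intron CPM in DMSO (log2 change 2.90 ± 0.16, edgeR adjusted p = 1.75e-21) and from 36.7 ± 6.09 to 133 ± 16.1 CPM with cisplatin (log2 change 1.85 ± 0.15, edgeR adjusted p = 4.99e-15). The exon/intron ratio rose in 4 of 7 genes in each treatment and fell in none, where 11.5% and 11.9% of all genes were called in either direction. It rose for MAP3K14 from 3.33 ± 0.677 to 7.30 ± 0.361 in DMSO and from 2.82 ± 0.182 to 6.30 ± 0.842 with cisplatin (log2 change 1.15 ± 0.19 and 1.16 ± 0.18). For GADD45B it rose from 34.4 ± 2.79 to 75.6 ± 22.3 in DMSO and from 27.0 ± 5.72 to 59.6 ± 1.22 with cisplatin (log2 change 1.08 ± 0.24 and 1.24 ± 0.21).

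**Figure D4:**
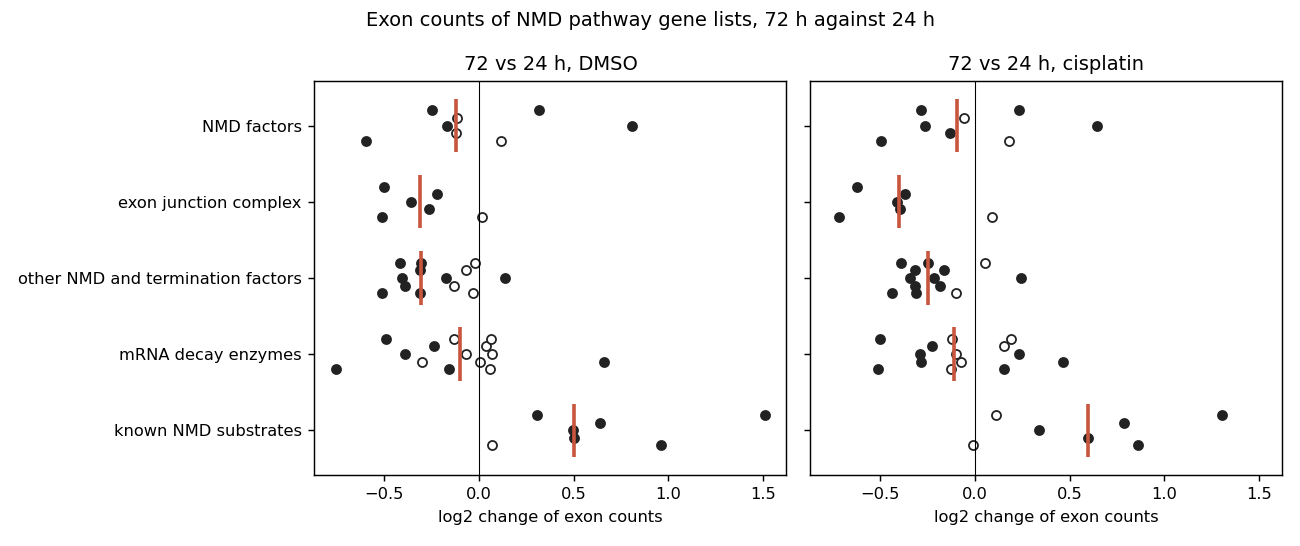
Log2 change of exon counts between 72 and 24 h (horizontal axes) for each gene of the NMD factors and of 4 lists of genes of the same pathway, in DMSO (left) and with cisplatin (right), with filled points for an edgeR adjusted p under 0.05 and a red line at the list's median. Medians are -0.31 and -0.40 for the exon junction complex and 0.50 and 0.60 for the known substrates, with the NMD factors spread from -0.59 to 0.81 in DMSO.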

How the data were processed

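RNA-seq of TYK-nu cells was analysed in 12 libraries (DMSO or 15 µM cisplatin, 24 or 72 h, 3 replicates each). The authors trimmed reads with Trim Galore 0.6.0, checked them with FastQC 0.11.8, aligned them with HISAT2 2.1.0 to GRCh38 and counted fragments with HTSeq-count over exon (intersection-strict) and intron (union) annotations built from Ensembl release 98. Which exons of a gene these hold is not given in the sources used here. For each gene and library, the deposited file gives raw counts of fragments in exons and in introns, neither normalized nor pooled. The strand option and the treatment of fragments with several alignments are not given in the sources used here.

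Positions and symbols were taken from GENCODE release 44 by identifier, for 17485 of 17508 genes. Groups follow the sample labels. Exon and intron counts were each tested with edgeR 4.0.16 in R 4.3.3 (glmQLFit and glmQLFTest, filterByExpr, TMM, 12 libraries in 1 fit). The ratio was tested with edgeR with a term for each library and the library's total as size, for genes in which 3 or more libraries had 10 or more counts of both kinds. The logistic regression used the 6 libraries of a comparison and genes with both kinds of count (1 or more) in each. P-values were adjusted over all genes by the Benjamini-Hochberg method at a threshold of 0.05. The tests were two-sided. Log2 changes carry SEs and 95% intervals from the fits. Copies were sought with BLAST 2.17.0 on the primary GRCh38 chromosomes (at least 100 bases at 95% identity). Alternatives were DESeq2 1.42.0, other size factors, filters and library sets, the replicate number as a block and leaving out each library. Levels per kilobase used the length of the MANE Select transcript, and the union of annotated exons was an alternative added after seeing the data. The tests were checked on simulated data. Figures and summaries used Python 3.11.15, pandas 2.3.3 and matplotlib 3.10.9.

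The members and gene lists were chosen with earlier results of these data known. The 9 members are always named. Of the other lists, a gene is named if it passed an edgeR test for cisplatin or is one of the 2 with the smallest adjusted p in a time comparison, and other names are said to be chosen after their values were seen. Replicates were compared by the chi-square of their exon counts per gene, which was 3.80 to 22.1, so no library was a copy of another of its group. Pairs across groups were not compared. Intervals of the edgeR fits cover counting error and the spread between libraries, while the SEs of the logistic regression in its main form cover counting error only.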

Additional observations from a re-analysis of the deposited data

How the results depend on the processing

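No member was called for cisplatin by edgeR or DESeq2 under any alternative, for exon counts, intron counts or the ratio. For single members the direction of the small exon changes was not stable when 1 library was left out. At 24 h the log2 change ranged from -0.0744 to 0.0503 for UPF1, from -0.0788 to 0.0192 for UPF2, from -0.0201 to 0.138 for UPF3A, from -0.0220 to 0.137 for SMG1 and from -0.0491 to 0.0278 for SMG5, and at 72 h from -0.00513 to 0.0670 for SMG5 and from -0.0123 to 0.0325 for SMG9. The logistic regression at 72 h called 1 member (main 0) with the replicate number as a block, beside 1273 of 10011 genes. It called 0 to 2 when 1 library was left out, beside 729 to 1138 genes.

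Between 72 and 24 h, the exon calls of UPF1, UPF2, UPF3A and SMG9 in both treatments, and of UPF3B with cisplatin, were kept under every alternative. When 1 library was left out, 4 to 5 members were called in DMSO (6373 to 6602 genes) and 5 to 6 with cisplatin (6104 to 6377 genes). The intron count with cisplatin was 1 with the library sizes of the exon counts (main 2, 2873 of 9618 genes). It was 0 to 2 when 1 library was left out (2442 to 2705 genes). For the ratio in DMSO DESeq2 called 1 member (edgeR 3, 777 of 9380 genes), and edgeR called 0 to 3 when 1 library was left out (699 to 878 genes). With cisplatin the edgeR ratio called 1 member, against 0, with own TMM sizes for exon and intron counts (1287 of 9380 genes). It called 0 to 1 when 1 library was left out (636 to 1121 genes). With a quasi-binomial spread the logistic regression called 0 members in DMSO and 0 with cisplatin (main 3 and 5), and with cisplatin 3 to 5 when 1 library was left out. The cause of these shifts was not tested.

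The replicate numbers do not pair the samples (the correlation of deviations of same-numbered exon libraries had a lowest value of -0.20 and a highest of 0.13). With the replicate block SMG5 lost its exon call with cisplatin (log2 change -0.13, edgeR adjusted p = 0.0511), and the other member calls of the edgeR tests did not change.

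Over all genes, the exon test called 7 genes at 24 h and 154 at 72 h without a filter on low counts (main 0 and 3), and DESeq2 called 85 at 72 h. Intron tests without a filter called 5 and 19 genes (main 2 and 4), and 26 at 72 h from the 6 libraries alone. The logistic regression called 0 and 0 genes for cisplatin with a quasi-binomial spread (main 1110 and 1144), and 64 and 97 over time (main 3278 and 3984). DESeq2 called 743 ratios over time with cisplatin (main 1118). With the union of annotated exons as length, an alternative chosen after seeing the data, UPF3A minus SMG1 at 72 h was -0.38 CPM per kb in DMSO and -1.07 with cisplatin (2.70 and 1.38 with the reference transcripts). Depth limits the intron values of UPF3B and SMG1, which had at most 85 intron counts in any library.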
